A study of Mus musculus with 14 samples.

Results

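The experiment asked whether the RNA response of mouse intestinal stem cells to the procedure labelled ES differs when Chrm3 is deleted in those cells. It holds 8 of the 14 libraries of the series, in 4 groups of n = 2: KO ES, KO NT, WT ES and WT NT. All of these mice carried a floxed Chrm3 gene (Chrm3flox/flox) and Lgr5CreERT2-IRES-GFP, an allele in which the Lgr5 promoter drives a tamoxifen-dependent Cre recombinase and a green fluorescent reporter, so the controls have both alleles as well. KO mice were injected with TAM and WT mice with vehicle for 3 days before ES modeling, so genotype and injection changed together and their effects cannot be told apart. NT marks the animals without ES. The labels expand neither abbreviation, the series title speaks of chronic stress, and the age of these mice is not stated in the labels. Cells were sorted on the reporter. The labels do not say that the libraries came from separate animals, so the p-values below measure the spread between these libraries, which may be technical.

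For every gene the measure was a difference of differences: the ES effect in KO (KO ES over KO NT) minus the ES effect in WT (WT ES over WT NT), on the log2 scale. A negative value means that the ES effect was lower in KO. Of the 55335 genes in the count table, 17364 passed a filter on low counts, and all of them were tested with edgeR's quasi-likelihood test and Benjamini-Hochberg adjustment. A gene is said to have passed with an adjusted p under 0.05. The filter lay at 0.319 CPM in at least 2 libraries: Prr7 and Dzip1 were just inside it and Capn12 and Pced1b, at 0.318 CPM in their second-highest library, just outside. Levels are in CPM, a gene's counts relative to the scaled total of its library, and ± is a standard error.

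Chrm3 encodes the M3 muscarinic acetylcholine receptor, which couples through Gq proteins to phospholipase C and the release of calcium from intracellular stores. In the gut epithelium acetylcholine comes from enteric nerves and from tuft cells. Lgr5 marks the dividing stem cells at the base of the crypt, whose daughters become absorptive enterocytes or secretory goblet, Paneth, tuft and enteroendocrine cells.

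Depth was 26.7 to 36.9 M counts per library. Chrm3 itself had 8.13 and 6.04 CPM in KO ES, 9.24 and 7.71 in KO NT, 11.6 and 10.9 in WT ES, and 11.2 and 12.97 in WT NT, so that both KO libraries lay below both WT libraries in NT and in ES. The gene was lower in KO by the test in ES (-0.68 ± 0.17, adjusted p = 0.0363) and did not pass in NT (-0.50 ± 0.16, adjusted p = 0.119). Which exons are deleted is not stated in the labels, so that counts of the whole gene are a weak check of the KO label. Stem cell markers were abundant in all 8 libraries, with Lgr5 at 90.8 to 133 CPM, while Col1a1, the collagen gene of fibroblasts, was at 0 in 6 libraries and at 0.0635 CPM or less in the others. Markers of differentiated cells were present too: Lyz1 of Paneth cells had 2553 to 4369 CPM and Muc2 of goblet cells 273 to 1017 CPM. In bulk RNA, fewer cells of a type and less RNA per cell cannot be told apart. The KO NT pair agreed least: its counts differed by a chi-square of 24.7 per degree of freedom, against 14.4 in KO ES, 12.8 in WT ES and 3.54 in WT NT, and KO NT replicate 2 had 8.74% mitochondrial counts against 6.42% to 7.53% in the other libraries.

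The ES effect differed between the genotypes in 19 genes, 0.109% of those tested. The effect was lower in KO in 17 of them (0.0979%) and higher in 2 (0.0115%). Without the adjustment, 1077 genes had a lower and 922 a higher effect in KO at p under 0.05, which is 6.20% and 5.31% of the genes. The 19 genes are all protein coding and lie on 12 chromosomes. The count depends on single libraries. It was 2 without KO ES replicate 1, 1 without KO ES replicate 2, 9 without WT ES replicate 2, 1 without WT NT replicate 1 and 2 without WT NT replicate 2. It was 397 without KO NT replicate 1 and 58 without KO NT replicate 2, and both of these fits called all 19 genes. Without the filter on low counts, edgeR's quasi-likelihood test on 29570 genes called none (2249 had an unadjusted p under 0.05), and the smallest adjusted p was 0.111, shared by Reg1 and Dmbt1. With the filter, limma-voom called 8 genes and DESeq2 211.

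**Figure D1:**
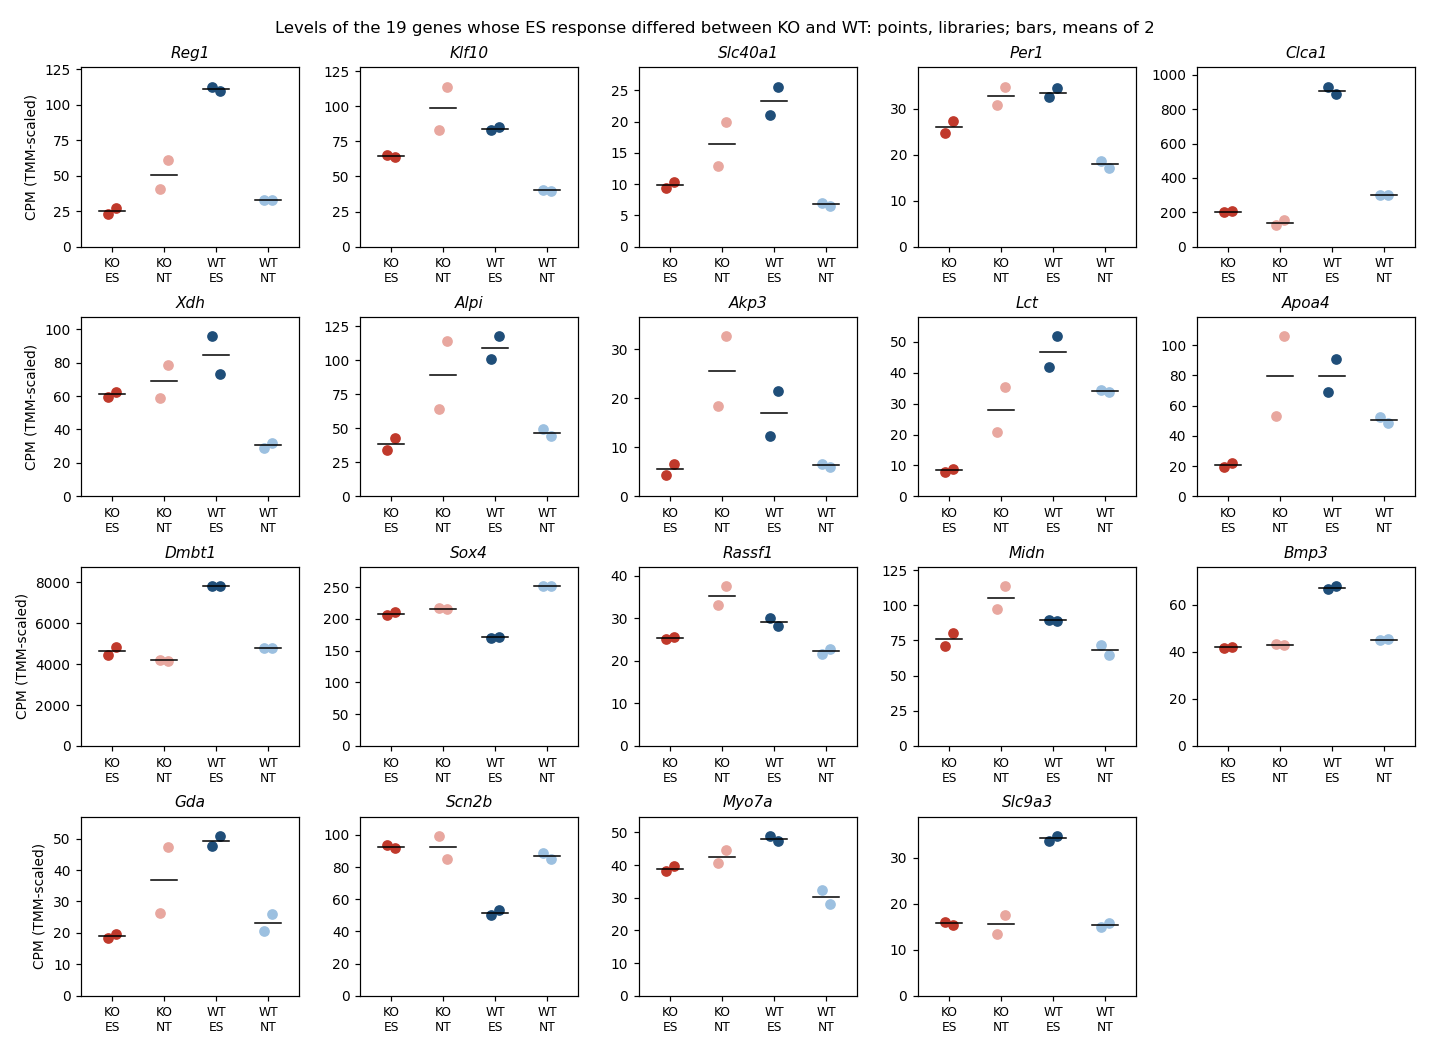
CPM after scaling (vertical axis, linear, from 0) of each of the 19 genes in the 8 libraries, with points for libraries and bars for the means of 2. Both KO ES points lie below both WT ES points in 17 panels, and in 12 of those both KO NT points lie above both WT NT points.

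The difference took a common form. Of the 17 genes with a lower effect in KO, 14 had a negative estimate in KO and a positive one in WT. That combination was found in 22.7% of all genes. Only Reg1, Alpi and Akp3 passed in opposite directions, and some KO estimates were small, such as -0.04 for Bmp3 and -0.13 for Myo7a. By the separate tests, 14 of the 17 passed as higher with ES in WT, where 2.10% of all genes did. In KO, 5 passed as lower (0.0979% of all genes), 1 passed as higher (0.415%) and 11 did not pass. These signs and tests share their libraries with the difference by which the genes were chosen. They describe how it arose and are no further evidence for it.

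Start levels and end levels are the 2 parts of the difference by which these genes were chosen, so the shares below describe that choice, and nothing is read from their excess over all genes. KO and WT differed in 4.47% of all genes in NT and in 7.56% in ES. In NT, 9 of the 17 genes were higher in KO (2.36% of all genes were), 1 was lower (2.11%) and 7 did not pass, and both KO NT libraries lay above both WT NT libraries in 12 of the 17, against 22.7% of all genes. The median of their KO over WT values in NT was 0.65. In ES, 12 were lower in KO (4.47% of all genes), none was higher (3.09%) and 5 did not pass, and both KO ES libraries lay below both WT ES libraries in all 17, against 26.3% of all genes. The calls in NT and in ES give 4 patterns. Slc40a1, Per1, Alpi and Akp3 (4 genes) were higher in KO at the start and lower at the end. Klf10, Xdh, Rassf1, Midn and Myo7a (5) were higher in KO at the start and did not pass at the end. Reg1, Lct, Apoa4, Dmbt1, Bmp3, Gda and Slc9a3 (7) did not pass at the start and were lower at the end. Clca1 (1) was lower in KO at both. Among the 17, KO NT replicate 2 was above KO NT replicate 1 in 15, so for most of them the start level in KO rests on 2 libraries that stand apart.

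**Figure D2:**
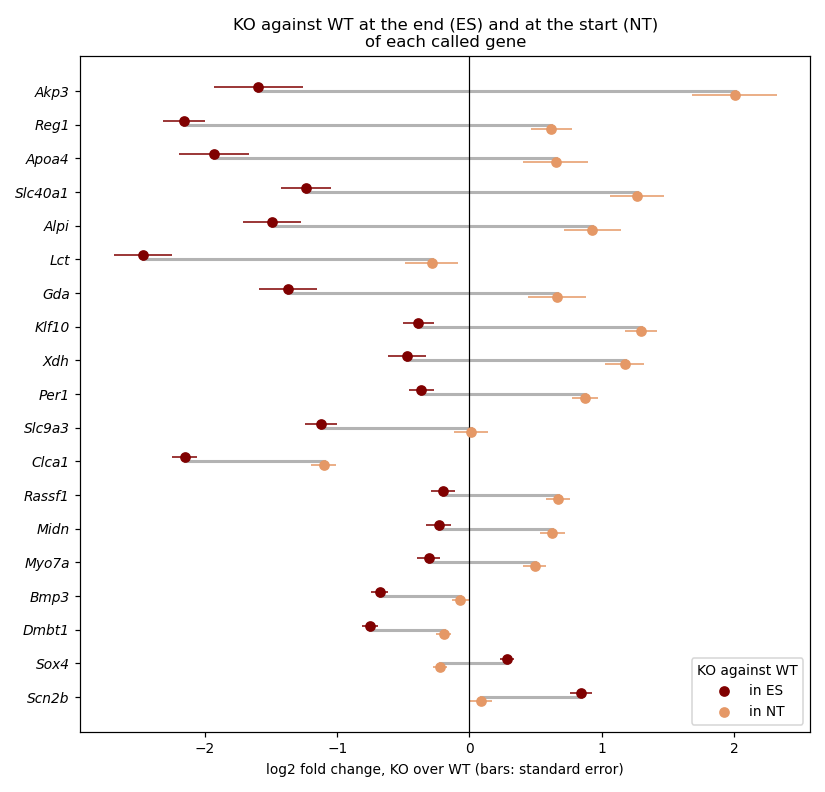
KO over WT (horizontal axis, log2 fold change with standard error) in ES and in NT for each of the 19 genes, joined by a grey line whose length is the size of the difference of the ES effects. Reg1 runs between -2.15 in ES and 0.62 in NT, while Slc9a3 has -1.12 in ES and 0.01 in NT.

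Of the 17 genes, 4 are on the list used here for enterocytes, the absorptive cells. Alpi (GRCm38 chromosome 1, 87098002 to 87101606, minus strand) encodes the alkaline phosphatase of the brush border, which removes phosphate from lipids and from bacterial endotoxin. It had 34.4 and 43.1 CPM in KO ES, 64.4 and 114 in KO NT, 101 and 118 in WT ES, and 49.4 and 44.2 in WT NT. KO libraries were the higher pair in NT and the lower pair in ES. ES lowered Alpi in KO (-1.20 ± 0.22, adjusted p = 0.042) and raised it in WT (1.22 ± 0.22, adjusted p = 0.0158), a difference of -2.42 ± 0.31 (95% interval -3.10 to -1.75, adjusted p = 0.0222).

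Akp3 (chromosome 1, 87124973 to 87127912, plus strand), its neighbour and the duodenal form of the enzyme, moved the same way at a lower level. It had 4.35 and 6.67 CPM in KO ES, 18.4 and 32.6 in KO NT, 12.3 and 21.5 in WT ES, and 6.63 and 6.01 in WT NT. The KO NT libraries lay above all others but 1, WT ES replicate 2, which lay between them. With -3.60 ± 0.47, Akp3 had the largest difference of the 19 genes (95% interval -4.63 to -2.57, adjusted p = 0.0246); the ES effect was -2.19 ± 0.32 in KO (adjusted p = 0.02) and 1.41 ± 0.34 in WT (adjusted p = 0.0489). The transcripts of Alpi and Akp3 were 82.6% identical over 1648 aligned bases, with a longest identical run of 68 bases, so reads could have been shared between them by a counting step that the labels do not describe.

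The promoters of both phosphatases are shown because the genes are neighbours with the same pattern. RefSeq (GRCm38.p6) windows run from 250 bases before to 50 after the start site, and 13 of the 19 genes had such a window (17 windows in all). Searched on both strands were CAAAGTCCA (the core of HNF4, a factor of enterocyte genes), AGATAAG (factors of the GATA family), CACGTG (the E-box of clock and other factors), TGACGTCA (the cyclic AMP response element), TGANTCA (AP-1, the target of Fos and Jun), the glucocorticoid response element and CCCCACCC (the CACCC box of Kruppel-like factors). No letters overlapped between the matches printed. Capitals mark the matches. The first window is chr1:87101557-87101856 (minus strand), the second chr1:87124704-87125003 (plus strand).
Alpi: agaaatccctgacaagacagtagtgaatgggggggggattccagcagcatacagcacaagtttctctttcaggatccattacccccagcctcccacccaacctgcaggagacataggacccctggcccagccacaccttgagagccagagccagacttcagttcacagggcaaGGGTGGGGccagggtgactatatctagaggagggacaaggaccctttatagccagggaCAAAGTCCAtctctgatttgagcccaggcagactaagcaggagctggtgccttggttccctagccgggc
Akp3: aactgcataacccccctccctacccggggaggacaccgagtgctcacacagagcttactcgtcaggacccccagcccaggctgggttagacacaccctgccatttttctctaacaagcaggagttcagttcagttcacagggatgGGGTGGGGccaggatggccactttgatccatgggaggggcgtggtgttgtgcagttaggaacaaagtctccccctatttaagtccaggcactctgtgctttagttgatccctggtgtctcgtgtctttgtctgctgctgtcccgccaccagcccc
Both windows hold GGGTGGGG, the CACCC box read on the other strand, beginning at -77 in Alpi and -105 in Akp3. That box is in 9.99% of the 32851 promoter windows of the table and in 4 of the 13 genes (Gda and Midn are the others). Alpi alone of the 13 holds the HNF4 core, at -19, which 0.475% of all windows hold. GATA, cyclic AMP and glucocorticoid sequences, in 3.04%, 1.79% and 0.475% of all windows, were in none of the 13. A match is a run of letters and was not tested as a binding site.

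Lct, which encodes lactase, had 7.999 and 8.88 CPM in KO ES, 20.7 and 35.5 in KO NT, 41.9 and 51.8 in WT ES, and 34.4 and 33.9 in WT NT. The fall in KO (-1.73 ± 0.22, adjusted p = 0.0123) left KO ES far below the other 6 libraries, and in WT the ES effect did not pass (0.45 ± 0.19, adjusted p = 0.241). Apoa4, an apolipoprotein of the chylomicrons in which enterocytes export fat, behaved alike, with 19.5 and 22.3 CPM in KO ES, 53.2 and 106 in KO NT, 68.9 and 90.8 in WT ES, and 52.7 and 48.3 in WT NT. Its ES effect was -1.92 ± 0.26 in KO (adjusted p = 0.0154) and 0.66 ± 0.25 in WT (adjusted p = 0.182). The differences were -2.18 ± 0.30 for Lct (adjusted p = 0.0352) and -2.58 ± 0.36 for Apoa4 (adjusted p = 0.0405).

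Over the enterocyte list of 39 tested genes, 4 passed in the difference (the genes above), all lower, and 35 did not. The estimate was below 0 in 39 of 39 (8393 of 17364 over all genes), and the median was -0.99 against 0.01 over all genes. Of the 39, 33 had a lower effect at an unadjusted p under 0.05, as did 6.20% of all genes. The list was chosen with earlier results of these data known and holds called genes. These counts therefore describe its members and are no further evidence. ES in KO lowered 7 members (0.0979% of all genes) and ES in WT raised 7 (2.10%), with medians of -0.29 in KO and 0.45 in WT. The 7 that fell in KO were the 4 above and Cyp3a11, Slc6a19 and Cubn. Cubn, the receptor for vitamin B12 bound to intrinsic factor, had 0.159 and 0.199 CPM in KO ES, 1.72 and 2.97 in KO NT, 1.43 and 2.39 in WT ES, and 1.63 and 2.18 in WT NT, and fell in KO by 3.66 on the log2 scale. Its difference of -3.65 ± 0.72 did not pass (adjusted p = 0.112), nor did that of Fabp1, the fatty acid binding protein, at -1.87 ± 0.33 (adjusted p = 0.0723). The summed level of the list was 4551 and 4857 CPM in KO ES, 4703 and 5977 in KO NT, 6303 and 6891 in WT ES, and 4982 and 4981 in WT NT. The part that the number of enterocyte-like cells in each sort has in these results was not tested.

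Transporters and enzymes outside that list gave 4 more genes. Slc40a1, or ferroportin, the iron exporter of the basal membrane, had 9.36 and 10.3 CPM in KO ES, 12.9 and 19.9 in KO NT, 21.03 and 25.6 in WT ES, and 7.01 and 6.55 in WT NT. WT ES was the highest pair and WT NT the lowest, with both KO pairs between them. The ES effect was -0.72 ± 0.19 in KO, where it did not pass (adjusted p = 0.182), and 1.78 ± 0.20 in WT (adjusted p = 0.00193), a difference of -2.50 ± 0.28 (adjusted p = 0.0115). Slc40a1 was the 1 member of 9 iron and haem genes that passed. Fth1, the ferritin heavy chain that stores iron, had -0.34 ± 0.08 (adjusted p = 0.147) and Slc46a1, a folate and haem carrier, -1.06 ± 0.34 (adjusted p = 0.266).

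Slc9a3, the sodium-proton exchanger of the brush border, was even at the start, with 15.998 and 15.4 CPM in KO ES, 13.4 and 17.6 in KO NT, 33.6 and 34.7 in WT ES, and 14.9 and 15.7 in WT NT. The WT ES pair stood apart from the other 6 libraries. In KO the ES effect was near 0 (0.02 ± 0.13, adjusted p = 0.987), and ES raised the gene in WT (1.16 ± 0.12, adjusted p = 0.00154). The difference was -1.13 ± 0.17 (95% interval -1.52 to -0.75, adjusted p = 0.0475).

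Xdh and Gda act in succession in purine breakdown: Gda turns guanine into xanthine and Xdh turns xanthine into urate. Xdh had 59.5 and 62.5 CPM in KO ES, 59.1 and 78.7 in KO NT, 95.7 and 73.2 in WT ES, and 29.03 and 32.1 in WT NT. WT NT was the lowest pair, and the KO libraries of NT and ES overlapped. Gda had 18.3 and 19.7 CPM in KO ES, 26.3 and 47.2 in KO NT, 47.6 and 50.9 in WT ES, and 20.5 and 26.004 in WT NT, with KO NT replicate 2 close to the WT ES pair and replicate 1 close to WT NT. The differences were -1.64 ± 0.21 for Xdh (adjusted p = 0.0222) and -2.03 ± 0.31 for Gda (adjusted p = 0.0475). These were the 2 of 14 purine genes that passed, and the median of the list was -0.07. Among 15 microvillus genes none passed (3 by p were Cdhr5 at -0.48 ± 0.10, Cdhr2 at -0.48 ± 0.10 and Pdzk1 at -3.09 ± 0.70), nor did any of 19 genes of fatty acid oxidation, where Pdk4, which restrains glucose oxidation, had -2.69 ± 0.61 (adjusted p = 0.145).

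Reg1 (chromosome 6, 78422711 to 78428667), a secreted C-type lectin that is induced in injured and regenerating epithelium, had the smallest p of all genes. It had 22.9 and 27.04 CPM in KO ES, 40.3 and 60.9 in KO NT, 113 and 109.7 in WT ES, and 32.8 and 32.96 in WT NT. The WT ES libraries were the highest by far, the KO ES libraries the lowest, and the 2 NT pairs did not overlap, KO being higher. The ES effect was -1.01 ± 0.16 in KO (adjusted p = 0.0235) and 1.76 ± 0.16 in WT (adjusted p = 0.000589), a difference of -2.77 ± 0.22 (95% interval -3.26 to -2.28, adjusted p = 0.00197). Its transcript was 78.9% identical to that of Reg2 over 674 bases, with a longest identical run of 19 bases. The promoter at chr6:78425733-78426032 (plus strand) holds 1 AP-1 sequence at -117, which 7.81% of all windows hold. It is shown for the gene with the strongest call.
Reg1: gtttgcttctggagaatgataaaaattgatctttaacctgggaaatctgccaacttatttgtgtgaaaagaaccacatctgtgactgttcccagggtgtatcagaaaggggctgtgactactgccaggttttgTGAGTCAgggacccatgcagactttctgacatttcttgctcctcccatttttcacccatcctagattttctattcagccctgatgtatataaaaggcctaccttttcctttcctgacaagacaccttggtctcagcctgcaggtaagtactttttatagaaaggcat

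Dmbt1, a secreted scavenger receptor that binds bacteria, was the most abundant of the 19 genes, with 4451 and 4810.2 CPM in KO ES, 4217 and 4148 in KO NT, 7793 and 7805 in WT ES, and 4787 and 4781 in WT NT. WT ES stood above the other 6 libraries, and the KO ES pair overlapped neither KO NT nor WT ES. Its difference of -0.56 ± 0.08 was among the smallest that passed (adjusted p = 0.0475), with an ES effect of 0.15 ± 0.06 in KO (adjusted p = 0.489) and 0.71 ± 0.06 in WT (adjusted p = 0.00043). Of 12 Reg and defence genes, Reg1 alone passed in the difference. In KO, ES raised 1 of the 12, Reg3g (0.415% of all genes rose), and lowered 1, Reg1 (0.0979% fell). In WT it raised 8 (2.10% of all genes). Reg3g, a bactericidal lectin, had 258 and 191 CPM in KO ES, 115 and 65.9 in KO NT, 336 and 361 in WT ES, and 119 and 117 in WT NT, and its difference of -0.25 ± 0.29 did not pass (adjusted p = 0.817). Reg3a had -1.27 ± 0.30 and the cytokine Il18 -1.06 ± 0.26 (adjusted p = 0.153 and 0.157).

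Genes that respond quickly to signals gave another group. Klf10, a transcription factor induced early by TGF-beta, had 65.01 and 63.5 CPM in KO ES, 83.2 and 114 in KO NT, 82.7 and 85.2 in WT ES, and 40.3 and 39.8 in WT NT. WT NT was the lowest pair and KO NT replicate 2 the highest library. KO exceeded WT in NT (1.30 ± 0.12, adjusted p = 0.000201) and did not pass in ES (-0.39 ± 0.12, adjusted p = 0.0762). The ES effect was -0.62 ± 0.12 in KO (adjusted p = 0.052) and 1.07 ± 0.12 in WT (adjusted p = 0.00193), a difference of -1.68 ± 0.17 (adjusted p = 0.00894).

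Klf10 was the 1 of 30 immediate early genes that passed in the difference, as it was of the 13 Kruppel-like factors and of the 20 genes of the TGF-beta and BMP response. For the immediate early genes the median difference was -0.80, and 29 of 30 estimates were below 0 (8393 of 17364 over all genes). Of the 30, 21 had a lower effect in KO at an unadjusted p under 0.05, as did 6.20% of all genes. This list too was chosen with earlier results of these data known and holds a called gene, so these counts are no further evidence. The start levels of its members, which enter the difference, differed too. In NT, 20 of 30 were higher in KO than in WT (2.36% of all genes). None was lower (2.11%), and the median was 1.09. Atf3, a stress-induced factor, had 75.04 and 87.4 CPM in KO ES, 99.5 and 179 in KO NT, 27.2 and 37.3 in WT ES, and 20.1 and 20.3 in WT NT, and Fos, a subunit of AP-1, had 595 and 693 CPM in KO ES, 682 and 980.2 in KO NT, 515 and 544 in WT ES, and 371 and 381 in WT NT. All 4 KO libraries lay above all 4 WT libraries for both genes. The differences of -1.44 ± 0.33 for Atf3 and -0.86 ± 0.19 for Fos did not pass (adjusted p = 0.148 and 0.135). The summed level of the list was 3464 and 4002 CPM in KO ES, 3920 and 5715 in KO NT, 2843 and 2987 in WT ES, and 2273 and 2264 in WT NT. KO NT replicate 2, which had the largest mitochondrial share, had the highest sum, and the part of that library's quality in the result was not tested.

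Per1, a repressor of the circadian clock that glucocorticoids also induce, had 24.7 and 27.3 CPM in KO ES, 30.9 and 34.8 in KO NT, 32.5 and 34.5 in WT ES, and 18.7 and 17.1 in WT NT. The KO NT and WT ES pairs overlapped, WT NT was lowest and KO ES lay between. The ES effect was -0.34 ± 0.09 in KO (adjusted p = 0.221) and 0.90 ± 0.10 in WT (adjusted p = 0.00181), and the difference was -1.24 ± 0.14 (95% interval -1.54 to -0.94, adjusted p = 0.0115). It was the 1 gene that passed among 18 glucocorticoid targets and among 18 clock genes, whose median differences were -0.31 and -0.20. At an unadjusted p under 0.05, 9 glucocorticoid targets had a lower effect in KO (6.20% of all genes) and 2 a higher one (5.31%). The upstream of the 2 Per1 promoter windows, chr11:69098699-69098998 (plus strand), is shown because clock factors act through the E-box, which it holds at -166. The E-box is in 7.15% of all windows and in 3 of the 13 genes (Midn and Slc9a3 are the others).
Per1: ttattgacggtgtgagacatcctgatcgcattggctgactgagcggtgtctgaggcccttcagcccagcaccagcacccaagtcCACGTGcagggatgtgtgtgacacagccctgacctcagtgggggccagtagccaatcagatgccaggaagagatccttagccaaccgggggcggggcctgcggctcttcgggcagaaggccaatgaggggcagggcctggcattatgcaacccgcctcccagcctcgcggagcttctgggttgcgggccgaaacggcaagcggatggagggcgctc

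Rassf1, Midn and Myo7a were, like Klf10, higher in KO in NT and did not pass in ES, with smaller differences. Rassf1, a scaffold protein that binds microtubules and is known as a tumour suppressor, had 25.2 and 25.5 CPM in KO ES, 32.99 and 37.5 in KO NT, 29.9 and 28.2 in WT ES, and 21.5 and 22.9 in WT NT. Midn, or midnolin, which carries nuclear proteins to the proteasome, had 71.1 and 80.6 CPM in KO ES, 97.3 and 114 in KO NT, 89.6 and 88.7 in WT ES, and 71.97 and 64.6 in WT NT. In both genes KO NT was the highest pair and the lowest library was from WT NT. Myo7a, an unconventional myosin known from the sensory hair cells of the ear, had 38.1 and 39.6 CPM in KO ES, 40.6 and 44.5 in KO NT, 48.99 and 47.3 in WT ES, and 32.2 and 28.2 in WT NT, with WT ES as the highest pair and WT NT as the lowest. The differences were -0.87 ± 0.13, -0.86 ± 0.13 and -0.80 ± 0.12, each with an adjusted p of 0.0475. In the same order, the ES effects in KO were -0.48, -0.47 and -0.13, and none passed. In WT they were 0.39, 0.38 and 0.67, and that of Midn did not pass (adjusted p = 0.0503).

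Clca1, a metalloprotease of the mucus layer made by goblet cells, stood apart by 2 calls. Of the 17 genes with a lower effect in KO, it alone passed as lower in KO in NT. It alone of them passed as higher with ES in KO. It had 202 and 207 CPM in KO ES, 124 and 157 in KO NT, 932 and 886 in WT ES, and 301 and 300.3 in WT NT. Both KO pairs lay below both WT pairs, as in Bmp3, and ES was higher than NT in both genotypes, as in Dmbt1. ES raised Clca1 in KO (0.55 ± 0.09, adjusted p = 0.0308) and more in WT (1.60 ± 0.09, adjusted p = 3.46e-05), a difference of -1.05 ± 0.13 (adjusted p = 0.0222). Clca1 was the 1 of 20 goblet cell genes that passed in the difference.

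The rest of the goblet cell list gave no call. Over all 20 genes, Clca1 included, the median difference was -0.05. At an unadjusted p under 0.05, 5 of the 20 had a lower effect in KO (6.20% of all genes) and 2 a higher one (5.31%). ES raised 12 of the 20 in KO (0.415% of all genes) and 16 in WT (2.10%), with medians of 0.65 and 0.80. At the start 19 of the 20 were lower in KO (2.11% of all genes), with a median of -0.78. Tff3, a peptide that helps to repair the mucosa, is an example with a difference near 0. It had 169 and 153 CPM in KO ES, 97.1 and 92.1 in KO NT, 341 and 332 in WT ES, and 197 and 192 in WT NT. Its ES effects were 0.77 ± 0.07 in KO and 0.79 ± 0.06 in WT, and the difference of -0.03 ± 0.09 had a 95% interval of -0.23 to 0.17. Muc2, the mucin of the gel, had a difference of -0.30 ± 0.08 that did not pass (adjusted p = 0.189; 95% interval -0.47 to -0.12). The summed level of the list was 6041 and 5972 CPM in KO ES, 3966 and 3879 in KO NT, 12435 and 12147 in WT ES, and 6594 and 6488 in WT NT, so KO ES lay below WT NT. A p that misses the threshold does not show that the responses were alike.

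**Figure D3:**
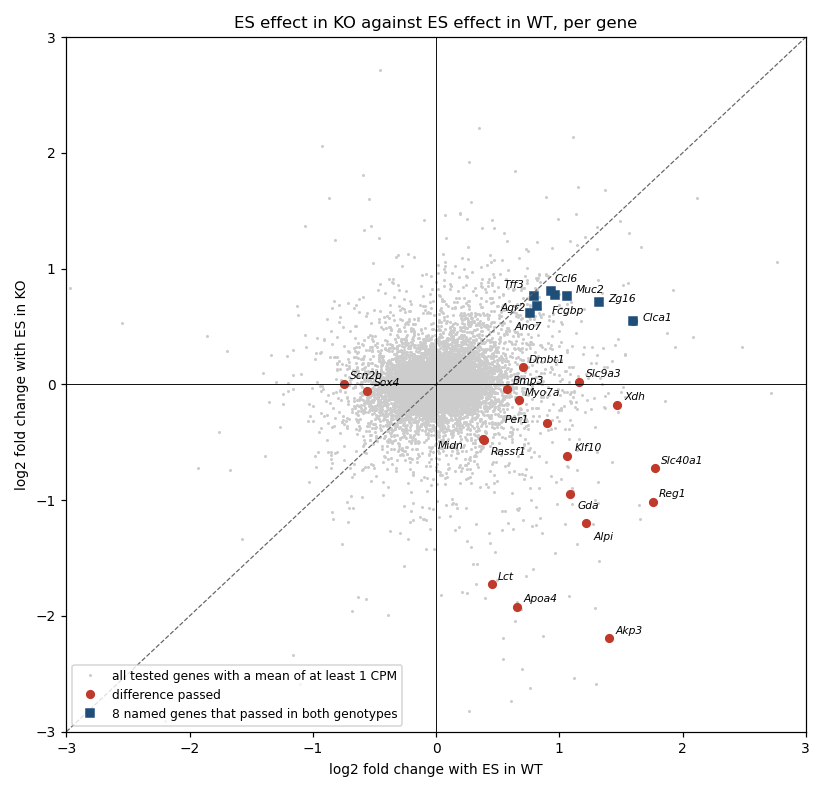
ES effect in KO (vertical axis, log2 fold change) against ES effect in WT (horizontal axis, log2 fold change) for 13691 tested genes with a mean of at least 1 CPM, of which 14 lie outside the axes. The dashed line marks equal effects, red points are the called genes and blue squares 8 genes that rose in both genotypes (Clca1, which is also called, is drawn as a square); 17 of the 19 called genes lie well below it on the right.

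Sox4 and Scn2b were the 2 genes whose ES effect was higher in KO. Sox4, a transcription factor of progenitors and a target of Wnt signalling, had 206 and 210.4 CPM in KO ES, 217 and 215 in KO NT, 170.4 and 172 in WT ES, and 252 and 252 in WT NT. WT ES was the lowest pair and WT NT the highest, with the 4 KO libraries between them and close together. The ES effect was -0.05 ± 0.05 in KO, where it did not pass (adjusted p = 0.883), and -0.56 ± 0.05 in WT (adjusted p = 0.00079), a difference of 0.50 ± 0.07 (adjusted p = 0.0475). Scn2b, a sodium channel subunit of the stem cell list, had 93.4 and 91.8 CPM in KO ES, 99.4 and 84.9 in KO NT, 49.97 and 53.4 in WT ES, and 88.9 and 84.8 in WT NT. WT ES stood below the other 6 libraries, which overlapped. Its difference was 0.76 ± 0.12 (adjusted p = 0.0475).

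Most other stem cell genes had the same direction without a call. Of 30 tested, Scn2b included, 26 had a difference above 0 (8971 of 17364 over all genes). Of these, 16 had an unadjusted p under 0.05 (5.31% of all genes had a higher effect so), and 1, Scn2b, passed. The median was 0.26. ES lowered none in KO (0.0979% of all genes) and 16 in WT (1.39%), with medians of -0.11 in KO and -0.34 in WT. This list too was chosen with earlier results of these data known and holds a called gene, so these counts are no further evidence. Ascl2, which maintains stem cell identity, had 30.3 and 30.4 CPM in KO ES, 35.2 and 28.3 in KO NT, 22.1 and 21.9 in WT ES, and 36.03 and 37.2 in WT NT, and a difference of 0.67 ± 0.15 (adjusted p = 0.133). Lgr5 had 0.22 ± 0.11 (adjusted p = 0.506) and Olfm4, a secreted glycoprotein of stem cells, 0.24 ± 0.10 (adjusted p = 0.406). Sox4 was the 1 of 19 Wnt targets and of 29 fate factors that passed. The 3 genes next by p in this direction did not pass: Raver1, an RNA-binding protein (3.80 ± 0.59, adjusted p = 0.0501), Tubb2b, a tubulin (0.62 ± 0.10, adjusted p = 0.0668), and Rec8, a cohesin subunit (1.19 ± 0.20, adjusted p = 0.0715). Raver1 has 2 identifiers in the table (ENSMUSG00000111497, given here, and ENSMUSG00000010205), which overlap on 1 strand and went opposite ways. The other one had a difference of -2.15 ± 0.36 (adjusted p = 0.0668) and rose with ES in WT (1.31 ± 0.26, adjusted p = 0.0259), so neither value can be read as a direction for the gene.

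Bmp3, a ligand of the bone morphogenetic protein family, was again a WT response that was not seen in KO. It had 41.8 and 42.3 CPM in KO ES, 43.4 and 42.8 in KO NT, 66.6 and 67.98 in WT ES, and 45.1 and 45.3 in WT NT. The WT ES pair stood alone, and the other 6 libraries lay between 41.8 and 45.3 CPM. The ES effect was -0.04 ± 0.07 in KO (adjusted p = 0.962) and 0.57 ± 0.07 in WT (adjusted p = 0.00193), a difference of -0.61 ± 0.09 (adjusted p = 0.0475).

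Seen from the WT response, the median effect in KO was nearer 0, mostly without a difference that passed. ES raised 364 genes in WT, and of these 33 also rose in KO, 3 fell in KO (Reg1, Alpi and Akp3), 14 passed in the difference and 318 did none of these. Over all genes, ES in KO raised 0.415% and lowered 0.0979%, and 0.109% passed in the difference. The median of the 364 was 0.09 in KO (quartiles -0.03 and 0.29) and 0.55 in WT. In KO 69.0% kept that sign, and 49.3% of all genes were above 0 there. Of the 241 genes that fell in WT, 2 fell in KO, 2 passed in the difference and 237 did neither; the sign was shared in KO by 73.0%, against a share of 50.6% over all genes, and the median was -0.06 in KO and -0.42 in WT. Genes chosen by their WT test have WT values that the choice makes larger, so these medians overstate the gap. ES in KO raised 72 genes, of which 33 also rose in WT, with medians of 0.75 in KO and 0.43 in WT. It lowered 17, of which 2 fell and 3 rose in WT. Over all genes, ES in WT raised 2.10% and lowered 1.39%. The 89 calls in KO (0.513% of all genes) were 29 and 11 without KO ES replicates 1 and 2, 288 and 137 without KO NT replicates 1 and 2, and 24 and 25 without WT NT replicates 1 and 2. The 605 in WT (3.48%) were 123 and 164 without WT ES replicates 1 and 2, 43 and 35 without WT NT replicates 1 and 2, and 1263 and 1258 without KO NT replicates 1 and 2.

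The 8 genes by p that rose in both genotypes were Muc2, Clca1, Fcgbp, Agr2, Tff3, Ccl6, Ano7 and Zg16. Zg16, a lectin of the mucus, had 195 and 206 CPM in KO ES, 100.4 and 145 in KO NT, 669.5 and 691 in WT ES, and 276 and 269 in WT NT, and Ccl6, a chemokine, had 139.5 and 142 CPM in KO ES, 73.4 and 87.7 in KO NT, 211 and 199 in WT ES, and 109 and 105 in WT NT. For both genes ES was higher than NT without overlap in each genotype. The differences of -0.61 ± 0.18 for Zg16 and -0.13 ± 0.11 for Ccl6 did not pass (adjusted p = 0.221 and 0.735). Among the 8 genes with the largest rise in WT, none passed in KO. Retnlb, a goblet cell protein active against bacteria, had 0.476 and 0.567 CPM in KO ES, 0.323 and 0.243 in KO NT, 4.19 and 3.18 in WT ES, and 0.408 and 0.235 in WT NT. Zbtb16, a transcription factor induced by glucocorticoids, had 0.508 and 0.794 CPM in KO ES, 0.862 and 0.152 in KO NT, 6.05 and 6.14 in WT ES, and 0.785 and 1.41 in WT NT. WT ES stood apart for both, yet the differences of -2.63 ± 0.78 and -2.16 ± 0.78 did not pass (adjusted p = 0.228 and 0.329), and these levels are low. The other 6 were Slc15a2, Med12l, Fhl1, Lcn2, B3galt5 and Ptk6, with differences between -2.79 and -0.50. Of the 8 with the largest fall in WT, none passed in KO, and the differences lay between 0.26 and 3.80. Mt2, a metallothionein, had 8.44 and 5.87 CPM in KO ES, 11.8 and 12.02 in KO NT, 9.17 and 4.08 in WT ES, and 20.8 and 22.2 in WT NT, and Dpysl5, a cytoskeletal regulator known from neurons, had 19.998 and 16.8 CPM in KO ES, 23.9 and 21.7 in KO NT, 14.3 and 15.9 in WT ES, and 31.3 and 28.96 in WT NT. The others were 1 of the 2 Raver1 identifiers, the one with 3.80 (the other rose in WT), Rec8, Smkr-ps, Fgfbp3, Rassf10 and Pcdh8.

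Further cell type and pathway lists gave no call in the difference. Over all genes, ES raised 0.415% in KO and 2.10% in WT, and 2.11% were lower in KO at the start. Of 21 Paneth cell genes ES raised 8 in KO and 5 in WT, with a median difference of 0.23, and Mptx2, a pentraxin, had 0.41 ± 0.09 (adjusted p = 0.126). The difference was above 0 in 19 of the 21. At an unadjusted p under 0.05, 8 had a higher effect in KO (5.31% of all genes) and none a lower one (6.20%). The 16 tuft cell genes had no call with ES in either genotype but 11 were lower in KO at the start, and Dclk1 had 8.98 and 12.1 CPM in KO ES, 8.40 and 7.77 in KO NT, 22.6 and 21.6 in WT ES, and 16.8 and 18.4 in WT NT. Chat, which makes acetylcholine in tuft cells, was low, with 0.508 and 0.170 CPM in KO ES, 0 and 0 in KO NT, 0.455 and 0.412 in WT ES, and 0.440 and 0.638 in WT NT. Of 23 enteroendocrine genes ES raised none in KO and 4 in WT, and the granule protein Chga had -0.75 ± 0.18 (adjusted p = 0.149). Of 33 genes of muscarinic, Gq and calcium signalling none passed with ES in either genotype, and the median difference was -0.03. None of 21 p38 genes or of 25 p53 and senescence genes passed with ES in either genotype, and their median differences were -0.05 and -0.04. Cdkn1a, a p53 target that halts the cycle, had -0.42 ± 0.23 (adjusted p = 0.532).

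Of 23 mitosis genes ES raised none in KO (0.415% of all genes) and 7 in WT (2.10%). Of the 23, 22 had a difference below 0, and 14 a lower effect in KO at an unadjusted p under 0.05 (6.20% of all genes). These counts describe the members and are no further evidence. At the start 17 of the 23 were higher in KO (2.36% of all genes), and the median difference was -0.23. The same shares over all genes hold for the lists below. Nusap1, which organises the spindle, had 88.2 and 91.1 CPM in KO ES, 91.7 and 90.4 in KO NT, 84.5 and 85.05 in WT ES, and 63.7 and 63.7 in WT NT, and a difference of -0.43 ± 0.08 (adjusted p = 0.112). Of 23 DNA replication genes ES lowered none in KO (0.0979% of all genes) and 4 in WT (1.39%), with a median difference of 0.13. Mki67, expressed in all dividing cells, had -0.02 ± 0.14 (adjusted p = 0.984). Of 38 interferon response genes ES raised 7 in KO and 6 in WT, with medians of 0.55 and 0.36 and a median difference of 0.21. The median difference was 0.10 for 9 genes of MHC class II, of which 1 rose with ES in KO and 2 in WT. It was -0.21 for 20 genes of protein folding and heat shock, of which none rose in KO and 2 in WT. It was 0.14 for 19 cholesterol synthesis genes, of which none rose in KO, 1 rose in WT and 14 were higher in KO at the start. Of the markers of other tissues, 28 immune identifiers summed to 139 to 203 CPM and 19 stromal and vascular genes to 11.1 to 14.4 CPM per library. None of the 22 and 6 of them that were tested passed in the difference.

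**Figure D4:**
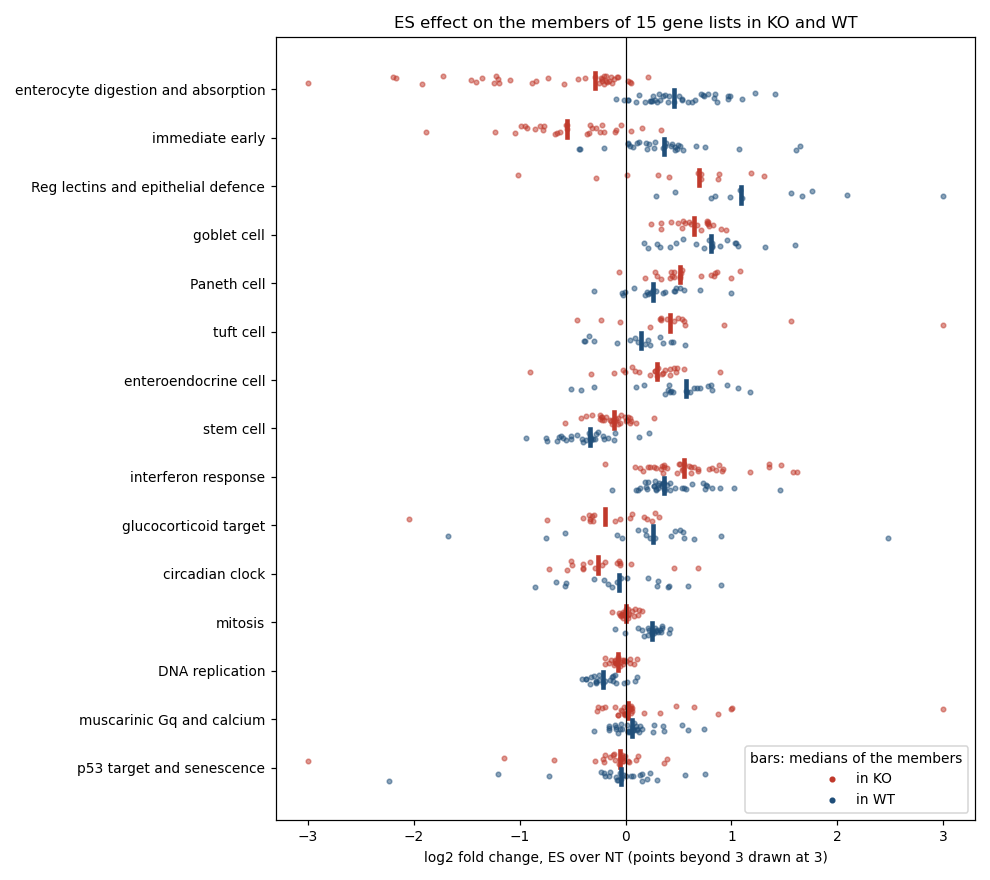
ES effect (horizontal axis, log2 fold change, values beyond 3 drawn at 3) on each tested member of 15 gene lists, in KO and in WT, with thick bars for the medians. The enterocyte medians are -0.29 in KO and 0.45 in WT, and those of the goblet cell genes 0.65 and 0.80.

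The ageing libraries, which share no sample with this experiment, gave a separate reading of the same genes. All 19 were tested in old (18 months) against young (2 months) mice with the reporter, n = 3 each. Klf10 and Slc9a3 were higher in old (2 of 19, against 4.42% of all genes), and Slc40a1, Clca1, Akp3, Sox4 and Scn2b were lower (5 of 19, against 3.42%). Slc9a3 had 29.7, 32.8 and 28.8 CPM in old and 20.3, 17.5 and 18.6 CPM in young (0.70 ± 0.09, adjusted p = 0.000982). Clca1 had 549, 501 and 699 CPM in old and 1141, 1410.5 and 1367 CPM in young (-1.17 ± 0.11, adjusted p = 0.000166). Neither pair of groups overlapped. Reg1 had 48.8, 55.9 and 39.2 CPM in old and 44.8, 44.01 and 43.5 CPM in young, which overlapped (adjusted p = 0.585). The other 11 genes did not pass either.

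No called gene changed its sign when 1 library was left out, but most calls did not last. Reg1 passed in all 8 such fits. Klf10, Slc40a1, Per1, Clca1 and Xdh passed in 4, Alpi, Akp3, Lct and Apoa4 in 3, and the other 9 in 2, which for every one of them include the fits without a KO NT library. Only 1 of the 19 passed without a KO ES or a WT NT library, whichever it was, while 10 passed without WT ES replicate 1 and 6 without WT ES replicate 2.

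**Figure D5:**
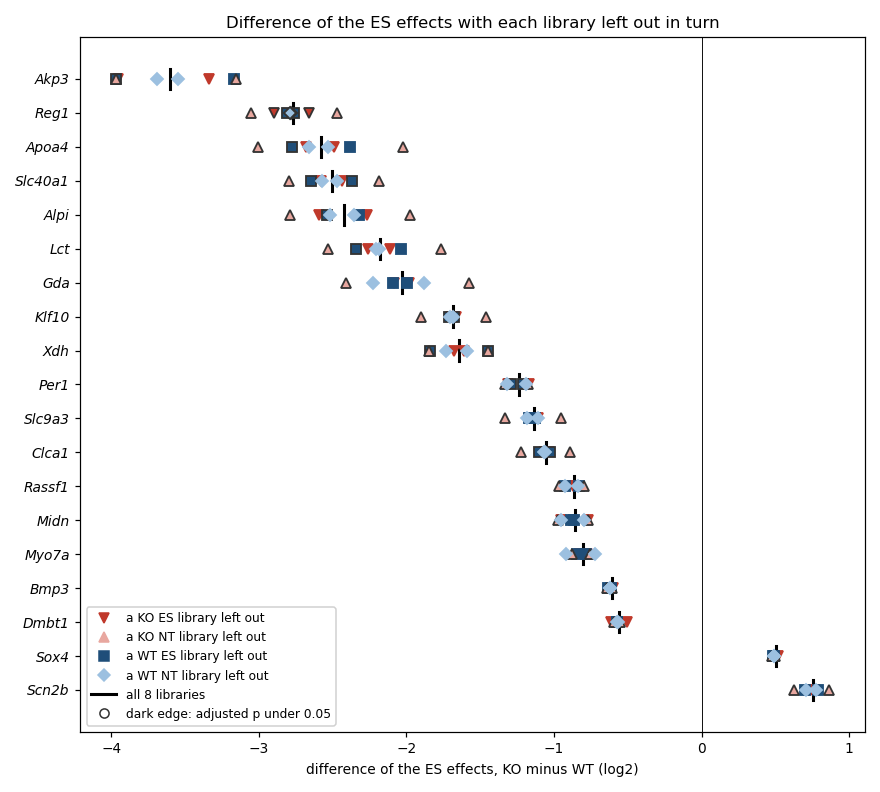
Difference of the ES effects (horizontal axis, log2, KO minus WT) of each of the 19 genes with all 8 libraries (black bar) and with each library left out in turn (symbols, with a dark edge where the adjusted p was under 0.05). Every symbol lies on the same side of 0 as its black bar, and Reg1 is the gene with a dark edge on all 8.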

How the data were processed

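Polyadenylated RNA of sorted cells was made into strand-specific TruSeq libraries, per the labels' protocols. The authors deposited raw counts per Ensembl gene, whole numbers with no normalization. The submitters' processing notes name mm10 (GRCm38) and FastQC 0.11.2. No aligner, counter or strand setting is named there. The columns named Ctrl were read as NT.

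Genes were kept with filterByExpr, scaled by TMM and fitted with 1 mean per group over the 8 libraries in edgeR 4.0.16 (quasi-likelihood, newer form). The standard error derives from the estimate and its F statistic. The ageing table was fitted apart (16807 genes). The fit was tested on simulated data. P-values were adjusted over all tested genes, with no test of lists. Gene positions are from GENCODE M21, which holds 55154 of the 55335 identifiers.

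The members, the 29 gene lists and the tests were chosen with earlier results of these data known. Named genes are those that passed, the 3 next by p where under 3 passed in a direction, up to 3 per list by p, the 8 by p called with ES in both genotypes, the 8 largest WT changes each way, and Chrm3, Lgr5, Olfm4, Ascl2, Mki67, Cdkn1a and Muc2, with means of at least 1 CPM and no predicted genes. The minimum did not apply to list members, such as Chat, which was below 1 CPM in all 8 libraries. Further list members, such as Cubn, Fabp1, Reg3g and Dclk1, were picked with their values in view. The alternatives were RLE, other filters, limma-voom (limma 3.58.1), DESeq2 1.42.0, a replicate block, a looser threshold and leaving out each library. With 1 library left in a group, that library is assumed to vary like the others.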

Additional observations from a re-analysis of the deposited data

Results flagged for a closer look

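Each of the following genes is listed because the ES effect itself differed between KO and WT in the test of the difference (edgeR quasi-likelihood, adjusted p under 0.05, n = 2 libraries per group). Values are differences of log2 fold changes, KO minus WT. Among genes of the absorptive cells and their transport and metabolism, the difference was -3.60 for Akp3, -2.58 for Apoa4, -2.50 for Slc40a1, -2.42 for Alpi, -2.18 for Lct, -2.03 for Gda, -1.64 for Xdh and -1.13 for Slc9a3. For the secreted proteins it was -2.77 for Reg1, -1.05 for Clca1, -0.61 for Bmp3 and -0.56 for Dmbt1. For signal-responsive and structural genes it was -1.68 for Klf10, -1.24 for Per1, -0.87 for Rassf1, -0.86 for Midn and -0.80 for Myo7a. For the genes with a higher effect in KO it was 0.76 for Scn2b and 0.50 for Sox4. In 15 of the 17 genes with a lower effect in KO, KO NT replicate 2 was above KO NT replicate 1. That library had 8.74% mitochondrial counts, and its part in these differences was not tested. A fit without it takes the pair that agreed least out of the shared spread, so passing there says nothing about that part. Most of the 17 estimates were smaller in size without it, such as -1.97 for Alpi, -2.03 for Apoa4 and -1.58 for Gda. Those of Dmbt1 (-0.59) and Bmp3 (-0.64) were larger in size.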

How the results depend on the processing

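Relative log expression (RLE) size factors and a filter of at least 1 CPM in 2 libraries left the count of differing ES effects at 19, with 18 of the 19 genes called in each. It was 8 with limma-voom, 11 with the older quasi-likelihood form (an alternative chosen after seeing the data; all 11 were among the 19), 0 with edgeR without the count filter (2249 at an unadjusted p under 0.05), 49 at an adjusted p under 0.1, 104 with a replicate block and 211 with DESeq2; the last 2 called all 19 genes. Without the filter 29570 genes were tested. The cause of the other changes was not tested. The replicate numbers pair nothing that the labels name, and the deviations of same-numbered libraries correlated between -0.01 and 0.37 over the pairs of groups, so the block stands for a shared number only. Leaving out 1 library gave 1 to 397.

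For ES in KO (89) the count was 188 at an adjusted p under 0.1, 8 without the filter, 226 with DESeq2, 206 with the replicate block and 11 to 288 with 1 library left out. For ES in WT (605) these were 1223, 114, 1028, 970 and 35 to 1263. KO against WT in NT (776) gave 1262 at an adjusted p under 0.1, 317 without the filter and 170 to 937 with 1 library left out; KO against WT in ES (1312) gave 2178, 593 and 423 to 1995. Old against young (1318) gave 1991, 666 and 647 to 1516, and 2019 with the replicate block.

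Of the named genes, 5 that did not pass turned their sign in 1 or 2 fits. Over all fits that leave out 1 library, the difference ranged between -0.39 and 0.033 for Chrm3, -0.098 and 0.043 for Tff3, -0.20 and 0.15 for Mki67, -0.33 and 0.032 for Cd74, and -0.67 and 0.21 for Pdgfrb. The other values above 0 were 0.0037 for Tff3 and 0.067 for Mki67 without KO NT replicate 1, and 0.16 for Pdgfrb without WT ES replicate 1.

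The smallest difference that passed was 0.50 on the log2 scale, for Sox4. Intervals cover the spread between these libraries only.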

Other observations

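The 12 identifiers next by p with a lower ES effect in KO, none of which passed, were Pck1, Ahnak, Hspa1a, Fam83d, Nr1h4, Prkar2b, C2cd2l, Adh6a, Fam72a, 1 of the 2 for Raver1, Rps6ka5 and Cyp3a11. Values are given for 4 of them, chosen after the values were seen. Nr1h4, the bile acid receptor of enterocytes, had 18.4 and 17.9 CPM in KO ES, 15.4 and 16.1 in KO NT, 29.4 and 31.4 in WT ES, and 15.4 and 15.3 in WT NT. WT ES stood alone, as for Slc9a3 and Bmp3, and the difference was -0.77 ± 0.13 (edgeR quasi-likelihood, adjusted p = 0.0668). Pck1, an enzyme of gluconeogenesis, had 4.25 and 4.45 CPM in KO ES, 6.90 and 10.6 in KO NT, 7.31 and 11.04 in WT ES, and 4.08 and 3.33 in WT NT, with both KO NT libraries above both WT NT libraries and a difference of -2.29 ± 0.37 (adjusted p = 0.0648). Hspa1a, an inducible heat shock protein, had 1.68 and 1.70 CPM in KO ES, 4.39 and 3.37 in KO NT, 2.02 and 2.32 in WT ES, and 0.911 and 0.874 in WT NT. Its difference was -2.47 ± 0.40 (adjusted p = 0.0648). Ahnak, a large scaffold protein of the membrane, had 22.2 and 18.2 CPM in KO ES, 22.7 and 23.7 in KO NT, 50.6 and 56.3 in WT ES, and 32.8 and 33.8 in WT NT, and a difference of -0.89 ± 0.14 (adjusted p = 0.0648).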
